A study of Mus musculus with 21 samples.

Results

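The 26S proteasome is the protease that degrades ubiquitin-tagged proteins, and the genes of its constitutive subunits were followed in smooth muscle cells cultured from the mouse aorta. The 31 genes were chosen by symbol: 14 subunits of the 20S core and 17 of the 19S regulatory particle, without the subunits of the immunoproteasome. All 31 were measured, among 12446 genes tested, on 67 of the 45101 probe sets of the array. The cells came from male C57BL/6J mice, 10 to 12 weeks old, and every group was fed 24 h before the stimulus and received PBS, alone or as the carrier. The groups were PBS control, an antibody to the lymphotoxin beta receptor (LTBR, 10 ug per ml), TNF (1 ng per ml), and the antibody with TNF. At 24 h there were 4 arrays each for control, antibody and TNF and 3 for the combination. The earlier times, 2 h and 6 h, have a lone array numbered 0 for control, antibody and TNF. The labels number the arrays at 24 h from 0 to 3 and do not say whether a number stands for a separate culture or animal. The p-values therefore rest on the spread among these arrays, which may be technical. The combination has no array numbered 0.

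The 20S core is a barrel of stacked rings in which the alpha subunits gate the entrance and 3 of the beta subunits carry the cutting sites. The 19S particle sits on the barrel: its lid and its base receptors bind and strip ubiquitin chains, and its ATPases unfold the protein and thread it into the core. The transcription factor Nrf1, encoded by Nfe2l1, raises subunit genes together through antioxidant response elements when proteasomes are short. Inflammatory signals can lead cells to make the immunoproteasome, in which Psmb9, Psmb10 and Psmb8 take the places of Psmb6, Psmb7 and Psmb5. The receptors for TNF and lymphotoxin act through NF-kB, and the proteasome destroys the NF-kB inhibitor and trims the NF-kB precursor proteins.

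RefSeq promoter windows (GRCm38.p6, 250 bases before to 50 after a start, on the strand of the gene) were found for 25 of the 31 genes, 27 windows in all. They were searched on both strands for the antioxidant element core TGACNNNGC, for CCAAT, for the NF-kB letters GGGANNTTC and for the interferon letters GAAANNGAA. The NF-kB and interferon letters are the first part of each element, so a match is not a complete site. TGACNNNGC was in 4 of the 27 windows (14.8%, against 12.4% of 32851 windows of all genes): those of Psmb5, Psmb6, Psmc6 and Psmd12. The other motifs were found in 10 windows for CCAAT (37% against 37.4%), in 1 for GGGANNTTC (3.7% against 3.94%) and in 4 for GAAANNGAA (14.8% against 8.56%). The windows of the catalytic genes Psmb5 (chr14:54617946-54618245, minus strand) and Psmb6 (chr11:70525107-70525406, plus strand) are shown with TGACNNNGC in capitals, since these genes are set against the immunoproteasome. The window of Psma6 (chr12:55383972-55384271, plus strand), chosen after its values were seen because this gene had the largest change of the 31, has GGGANNTTC in capitals; the other Psma6 window held none of the 4 motifs. A match is a description of letters, not of binding.
Psmb5: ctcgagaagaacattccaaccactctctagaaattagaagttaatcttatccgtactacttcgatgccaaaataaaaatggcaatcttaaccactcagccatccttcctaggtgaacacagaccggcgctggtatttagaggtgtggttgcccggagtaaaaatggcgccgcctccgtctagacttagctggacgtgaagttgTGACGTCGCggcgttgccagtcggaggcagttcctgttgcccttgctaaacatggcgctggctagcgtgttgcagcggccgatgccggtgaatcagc
Psmb6: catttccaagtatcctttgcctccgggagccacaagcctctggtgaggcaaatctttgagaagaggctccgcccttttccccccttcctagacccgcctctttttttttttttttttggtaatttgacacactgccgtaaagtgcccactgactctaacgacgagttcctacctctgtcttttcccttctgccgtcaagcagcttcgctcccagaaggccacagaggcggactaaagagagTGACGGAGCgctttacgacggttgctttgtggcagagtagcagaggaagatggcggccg
Psma6: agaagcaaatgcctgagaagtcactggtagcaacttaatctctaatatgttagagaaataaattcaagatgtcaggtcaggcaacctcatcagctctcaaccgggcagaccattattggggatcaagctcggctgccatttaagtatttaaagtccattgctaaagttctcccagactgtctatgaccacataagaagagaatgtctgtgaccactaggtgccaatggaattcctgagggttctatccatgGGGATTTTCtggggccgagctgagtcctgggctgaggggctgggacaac

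All 31 genes were well expressed. Their signals on the 21 arrays lay between 1055.7 and 9506.6, and all 31 were above the array median on all 21 arrays, where the medians ran from 106.8 to 139.0. All 10 smooth muscle markers passed the filter on dim probe sets, with summed signals of 46477.2 to 75231.4 over the arrays at 24 h. With the block described next, 3 of these 10 were called lower for the antibody (2.23% of all genes were called lower), 6 for TNF (2.88%) and 7 for the combination (10.4%). Of the adventitial fibroblast markers Cd34 was called higher for the antibody and lower for TNF, and Dpt and Pdgfra higher for the combination. The part of these marker changes in the results was not tested. The arrays numbered 0 stood apart: their 10 endothelial markers summed to 21134.6 to 22454.3, against at most 4828.7 on the arrays numbered 1 to 3. The largest parts of these sums were Emcn (8749.9 to 9142.8 on number 0) and Pecam1 (4438.0 to 5653.2). Not all 10 were raised: Kdr was 170.1 to 275.7 on number 0 and 180.7 to 362.3 on numbers 1 to 3. Eng was 1538.0 to 1681.4 on number 0 and 1145.1 to 2124.8 on numbers 1 to 3. The smooth muscle marker Myh11 was 152.1, 110.7 and 150.6 on number 0 of control, antibody and TNF, and 529.2 to 3337.8 on numbers 1 to 3. Another, Acta2, was 17546.1 to 18300.7 on number 0 and 16442.3 to 19661.5 on numbers 1 to 3. Macrophage markers (6 of 9 passed) summed to 1054.3 to 4499.6, lowest on number 0 in each group that has it and highest on number 3 in every group. The sums on number 3 were 4250, 3168, 3434.4 and 4499.6 in control, antibody, TNF and combination. The group medians were 1531.6, 1552.6, 1907.05 and 1871.7. Adventitial fibroblast markers (5 of 7) summed to 6978.2 to 14410.9 and lymphocyte markers (2 of 7) to 406 to 841.7. Fewer cells of a type and less RNA per cell cannot be told apart in these samples. The part of the endothelial, macrophage and Myh11 signals in the results was not tested.

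At 24 h the subunit genes moved little. A gene was called when its adjusted p was under 0.05 (limma, Benjamini-Hochberg over 12446 genes), and without a block for the replicate number 0 of 31 were called against the control for the antibody (0.129% of all genes were called), TNF (0.337%) or the combination (2.45%). At an unadjusted p under 0.05 there were 3, 3 and 4 genes, all on the side of higher signal. Of the 12446 genes 536, 583 and 1427 were under 0.05 in either direction. The median change over the 31, on the log2 scale of signal plus 10.2 used throughout, was 0.075 for the antibody, 0.087 for TNF and 0.055 for the combination, against -0.013, -0.021 and 0.0044 over all genes. It was positive for 29, 28 and 26 of the 31 genes, against 46.2%, 43.4% and 50.9% of all genes. The 3 treatments share the control arrays, so these counts are not independent of each other. In the combination the changes ran from -0.091 to 0.36, and the 95% intervals of the 31 genes for the combination reached from -0.35 to 0.66.

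The replicate numbers paired the arrays, and the fit with the number as a block called 1 gene higher for the antibody (2.56% of all genes were called higher), 3 for TNF (3.05%) and 8 for the combination (9.1%). None was called lower. The gene called in all 3 comparisons was Psma6; Psmb3 and Psmb6 joined it for TNF. In the combination the others were Psma5, Psma7, Psmb3, Psmd1, Psmd2, Psmd3 and Psmd11. The share of members called, like that of all genes, was largest in the combination. With the arrays also scaled to equal medians 1, 1 and 3 genes were called (3.3%, 2.76% and 7.42% of all genes were called higher), Psma6 in each and Psmd1 and Psmd3 in the combination. That scaling also shifted the split over all genes: the antibody calls went from 318 higher and 277 lower to 411 and 61.

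Left-out arrays moved these counts. For the combination 4 to 9 genes were called with the block when 1 of the 15 arrays was left out, with 4 without combination array 2, and 5 without combination array 1 or without control array 2. For TNF the count was 1 to 4, with 1 without control array 1, TNF array 1 or TNF array 3. For the antibody the count was 0 to 2: it was 0 without control array 1 or 3 or without antibody array 1 or 3, and 2 without TNF array 2. Psma6, Psmd1, Psmd3 and Psmd11 in the combination, and Psma6 for TNF, stayed called in 15 of 15 such fits.

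**Figure D1:**
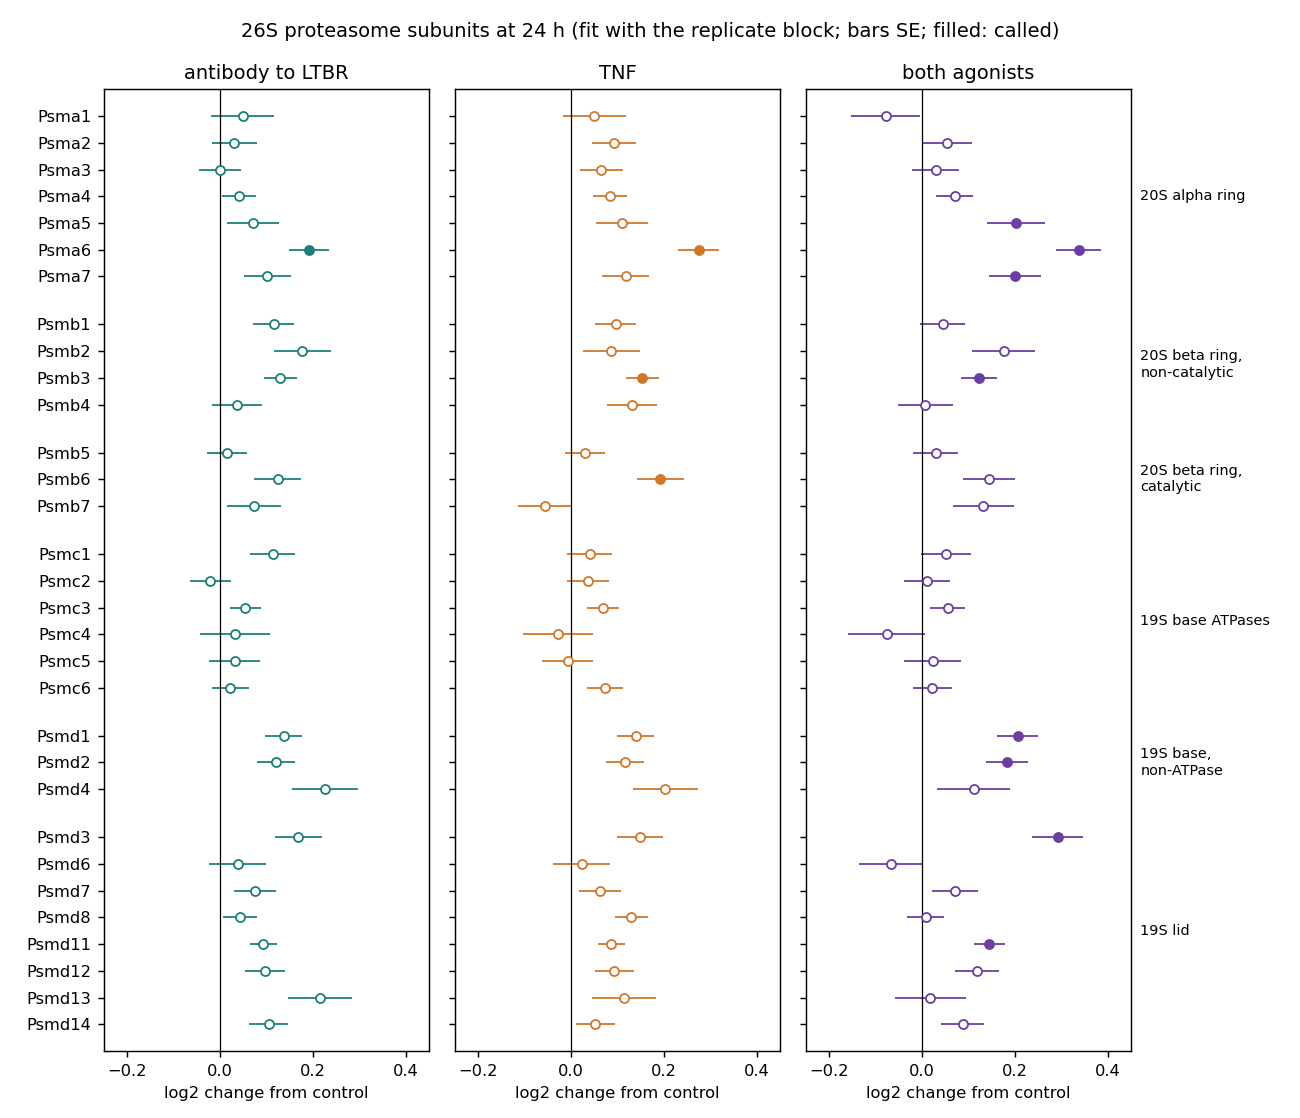
Log2 change from the control at 24 h (horizontal axis) of the 31 subunit genes in the fit with the replicate block, for the antibody, TNF and both agonists. Points are estimates, bars are standard errors, and filled points are genes with an adjusted p under 0.05: 1, 3 and 8 in the panels from left to right, all to the right of 0.

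The alpha ring held the largest change. Psma6, an alpha subunit of the core, had signals of 5751.9, 6864.6, 6062.9 and 5044.0 on control arrays 0 to 3, and 6261.4, 8164.0, 6641.6 and 6055.4 with the antibody. With TNF they were 7020.9, 8307.8, 7483.7 and 5929.9, and with both agonists 9007.9, 7039.8 and 6768.5 on arrays 1 to 3. Every treated array was above the control array of its number, although the groups overlapped. With the block Psma6 was higher by 0.19 ± 0.043 (SE) for the antibody (adjusted p = 0.0216), 0.27 ± 0.043 for TNF (0.00203) and 0.34 ± 0.048 for the combination (0.000205). Without the block the combination gave 0.36 ± 0.14 (adjusted p = 0.315). The antibody call ended without control array 1, control array 3, antibody array 1 or antibody array 3 (adjusted p up to 0.0899).

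Psma7 and Psma5, further alpha subunits of the same ring, were called in the combination only with the block. Psma7 had signals of 3068.7, 2839.4, 2790.9 and 2581.3 in the control and 3245.4, 3321.5 and 2953.3 in the combination, a difference of 0.20 ± 0.056 (adjusted p = 0.0219). The single treatments gave 3314.0, 2961.7, 2882.6 and 2942.3 with the antibody and 3079.6, 2976.3, 3358.6 and 2827.6 with TNF. Psma5 had 5714.5, 4593.8, 5393.4 and 5362.4 in the control and 5543.2, 6559.0 and 5836.4 in the combination, or 0.20 ± 0.062 (adjusted p = 0.0355). In both genes the combination overlapped the control, and both were above the control array of the same number on all 3 arrays. Psma5 had 5961.4, 4898.0, 5933.2 and 5337.8 with the antibody and 5373.9, 5029.9, 6881.4 and 5526.1 with TNF. The Psma7 call ended without control array 2 or 3 or combination array 1 or 2 (adjusted p up to 0.0893), and the Psma5 call without control array 1 or 2, antibody array 0 or any of the 3 combination arrays (up to 0.148). Psma1, Psma2, Psma3 and Psma4 were not called in any comparison. Their changes in the combination with the block ran from -0.079 ± 0.075 for Psma1 to 0.070 ± 0.040 for Psma4.

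Of the 4 structural beta subunits Psmb3 was called. Its control signals were 3396.0, 3354.4, 3696.5 and 3663.0, those with TNF 3647.0, 3873.2, 4128.1 and 4056.7, and those with both agonists 3662.3, 4013.3 and 4005.0. With the antibody they were 3797.3, 3729.7, 4024.0 and 3882.7, all above the highest control array, whereas the other groups overlapped the control. The difference with the block was 0.15 ± 0.035 for TNF (adjusted p = 0.02), 0.12 ± 0.039 for the combination (0.0422) and 0.13 ± 0.035 for the antibody (0.0521). The TNF call ended without control array 1, TNF array 1 or TNF array 3 (adjusted p up to 0.0816). The combination call remained in 3 of 15 fits that left out an array, those without TNF array 0, 1 or 2, and ended in the others (up to 0.148). Psmb1, Psmb2 and Psmb4 were not called, with the largest estimates for Psmb2, 0.18 ± 0.061 for the antibody and 0.18 ± 0.068 for the combination.

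Of the catalytic subunits Psmb6 was called, for TNF with the block. Psmb5, the chymotrypsin-like subunit, had control signals of 4032.3, 4106.8, 3983.5 and 4079.6, and antibody signals of 4374.4, 4418.3, 3872.0 and 3749.7. With TNF it had 4168.1, 4324.2, 4159.6 and 3896.6, and with both agonists 4222.9, 4046.4 and 4036.4. These groups overlap, and with the block the change in the combination was 0.029 ± 0.048, with a 95% interval of -0.074 to 0.13. Psmb6, the caspase-like subunit, had 2973.1, 2745.0, 3054.3 and 2831.0 in the control and 3094.1, 3292.8, 3558.9 and 3319.2 with TNF. The TNF arrays all lay above the control arrays, and the difference of 0.19 ± 0.050 was called with the block (adjusted p = 0.0397). With the antibody Psmb6 had 3126.6, 3182.2, 3147.8 and 3185.4, also all above the control arrays (0.12 ± 0.050 with the block, adjusted p = 0.194). With both agonists it had 2933.6, 3611.2 and 3156.7 (0.14 ± 0.056, adjusted p = 0.0928). The TNF call ended in 9 of 15 fits: those without control array 1, 2 or 3, antibody array 0 or 3, TNF array 1, 2 or 3, or combination array 3 (up to 0.128). Psmb7, the trypsin-like subunit, had 7565.0, 7312.3, 7141.4 and 6594.8 in the control and 8148.2, 7511.3 and 7397.4 in the combination (0.13 ± 0.065, adjusted p = 0.187). With TNF it had 7289.0, 7504.3, 5719.7 and 7128.3, where array 2 was the lowest of all 15, and with the antibody 7980.3, 7503.0, 7550.1 and 7054.8.

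On the probe sets used, none of the 6 ATPases of the 19S base, Psmc1 to Psmc6, was called in any of the comparisons, with or without the block. Their median change was 0.032 for the antibody, 0.038 for TNF and 0.021 for the combination without the block. With the block the combination changes ran from -0.076 for Psmc4 to 0.055 for Psmc3. Psmc4 had control signals of 3636.4, 4157.7, 3418.8 and 3361.4 and combination signals of 4088.4, 3739.3 and 2798.6, the last the lowest of the 15 arrays. It had 3224.3, 3986.1, 4028.4 and 3666.8 with the antibody and 3549.4, 3749.5, 3919.4 and 3073.5 with TNF, on both sides of the control. Psmc5 had 87.4% of its sum of squares between the replicate numbers and 0.863% between the groups. The Psmc2 probe set used had mean signals of 7595.3, 7496.6, 7812.5 and 7668.9 in control, antibody, TNF and combination. Another passing Psmc2 probe set had 4870.8, 5201.2, 5144.8 and 5320.0 (SD 169.9 to 372.6), with each treated mean above the control mean.

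The other base subunits, Psmd1, Psmd2 and Psmd4, had positive estimates for every treatment, and Psmd1 and Psmd2 were called in the combination with the block. Psmd1, a scaffold subunit of the base, had control signals of 2914.3, 2835.6, 2651.2 and 2432.2 and combination signals of 3315.4, 2961.7 and 2932.7, which did not overlap. The difference was 0.21 ± 0.044 with the block (adjusted p = 0.00464) and 0.18 ± 0.075 without it (0.349). Psmd1 had 3095.2, 3018.2, 2962.1 and 2819.3 with the antibody and 3089.8, 3029.4, 2948.1 and 2847.8 with TNF, each array above the control of its number (adjusted p = 0.0707 and 0.0586 with the block). Psmd2, the other large scaffold of the base, had 4504.9, 4450.3, 4095.0 and 3836.5 in the control and 5057.1, 4678.0 and 4302.7 in the combination, which overlapped. It had 4954.8, 4818.1, 4141.3 and 4448.1 with the antibody and 4882.2, 4595.2, 4403.8 and 4391.3 with TNF. Its difference of 0.18 ± 0.045 in the combination was called with the block (adjusted p = 0.0114), and the call ended without combination array 1 or 2 (up to 0.0745).

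Psmd4, the ubiquitin receptor also known as Rpn10, was not called on the probe set used. It had control signals of 2145.7, 2447.3, 2812.7 and 2682.3, antibody signals of 3105.5, 2879.8, 2948.3 and 2818.4, and TNF signals of 2822.5, 2919.0, 2950.7 and 2865.2. Both agonists given singly lay above all control arrays, and in the combination Psmd4 had 2494.7, 2758.7 and 3014.0. The antibody difference from the control of the same number was 0.53 on the array numbered 0 and 0.23, 0.068 and 0.071 on arrays 1 to 3. With the block the estimates were 0.23 ± 0.070 for the antibody (adjusted p = 0.0883) and 0.20 ± 0.070 for TNF (0.119). The other passing Psmd4 probe set had a control mean of 2151 ± 77.6 (SD, n = 4) and changes of 0.21 ± 0.061 for the antibody (adjusted p = 0.0888) and 0.26 ± 0.061 for TNF, the latter called in the fit of all passing probe sets with the block (0.0297).

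Psmd3 and Psmd11 were the called members of the lid. Psmd3, a scaffold subunit of the lid, had 1564.2, 1490.6, 1450.3 and 1239.6 in the control and 1812.9, 1626.5 and 1663.6 in the combination. All 3 combination arrays lay above all control arrays, and the difference was 0.29 ± 0.056 with the block (adjusted p = 0.00199) and 0.25 ± 0.096 without it (0.296). With the antibody Psmd3 had 1763.2, 1656.6, 1536.4 and 1494.5, and with TNF 1766.7, 1554.5, 1571.8 and 1469.1 (adjusted p = 0.0754 and 0.11 with the block). Psmd11, a lid subunit also known as Rpn6, had 6798.8, 6988.4, 7001.2 and 6845.3 in the control, 7287.8, 7347.5, 7302.0 and 7545.9 with the antibody, and 7140.5, 7440.3, 7433.1 and 7342.9 with TNF. In the combination it had 7797.2, 7429.6 and 7834.9, so that every treated array of Psmd11 lay above every control array. The combination differed by 0.14 ± 0.033 with the block (adjusted p = 0.00635) and 0.15 ± 0.046 without it (0.119, the smallest of the 31 genes). Of its sum of squares 82.9% lay between the groups, the largest share among the members.

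The remaining 6 lid genes were not called. Psmd13 had 1120.9, 1142.2, 1149.0 and 1126.0 in the control, 1413.5, 1240.8, 1381.7 and 1246.2 with the antibody, 1365.3, 1121.4, 1370.7 and 1085.7 with TNF, and 1055.7, 1127.4 and 1206.5 with both. The antibody arrays alone stood clear of the control, by 0.21 ± 0.069 with the block (adjusted p = 0.102). Psmd6 had control signals of 4741.8, 5184.0, 5085.1 and 4882.6 and combination signals of 4799.6, 5253.5 and 4481.5 (-0.067 ± 0.068 with the block). Psmd6 had 4890.3, 5257.6, 5576.0 and 4725.2 with the antibody and 4659.7, 4898.0, 6461.7 and 4406.5 with TNF. Psmd8 had 5532.1, 4819.3, 5488.4 and 5676.9 in the control, 5974.4, 5477.8, 5890.4 and 6179.6 with TNF (0.13 ± 0.036, adjusted p = 0.0506 with the block) and 5003.9, 5286.9 and 5821.9 with both. With the antibody it had 5608.9, 5187.3, 5236.9 and 6146.6. Psmd7, Psmd12 and the lid deubiquitinase Psmd14 changed by 0.070, 0.12 and 0.087 in the combination with the block.

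**Figure D2:**
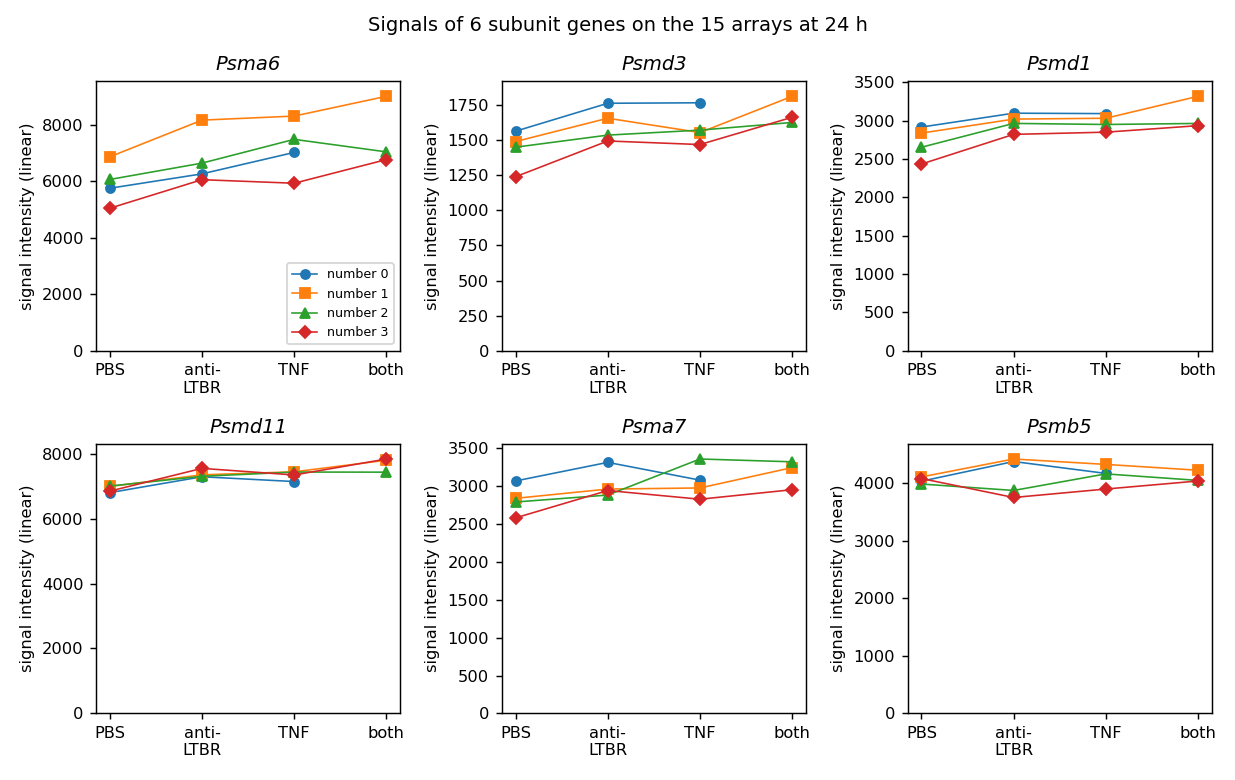
Signal intensity (linear axes from 0) of Psma6, Psmd3, Psmd1, Psmd11, Psma7 and Psmb5 on the 15 arrays at 24 h, with a line for each replicate number across PBS control, antibody, TNF and both agonists. The lines of Psma6 lie at different levels with every treated point above its own control, those of Psmd11 lie close together, and those of Psmb5 stay between 3749.7 and 4418.3.

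There were 5 genes lower in the combination than in the control without the block, against the direction of the other 26: Psma1, Psmc4, Psmd6, Psmd8 and Psmd13, by -0.091 to -0.0022. None was called. Psma1, an alpha subunit, had 4641.4, 4779.5, 4459.1 and 4095.5 in the control and 4511.3, 4420.6 and 3749.2 with both agonists, below the control of the same number on 3 of 3 arrays. With the antibody it had 4844.0, 4931.5, 4638.7 and 4185.8, and with TNF 4631.5, 4650.3, 5788.9 and 3728.3. With the block 3 genes were negative, since Psmd8 and Psmd13 turned to 0.0075 and 0.018.

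On single arrays 19 (TNF array 3) to 30 (antibody array 0) of the 31 genes were higher than on the control of the same number. They were higher than the same-numbered control in every pair for 16 genes with the antibody (12.1% of all genes), 14 with TNF (10.5%) and 14 with the combination (24.2%), and Psma1 was lower in every combination pair. The median difference of the 31 was positive on all 11 treated arrays, from 0.047 on TNF array 0 to 0.15 on TNF array 2, while the medians of all genes lay between -0.027 and 0.0026. On TNF array 2 Psmb4 was 0.40, Psma1 0.38, Psma5 0.35 and Psmd6 0.35 above its control and Psmb7 below it (-0.32).

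**Figure D3:**
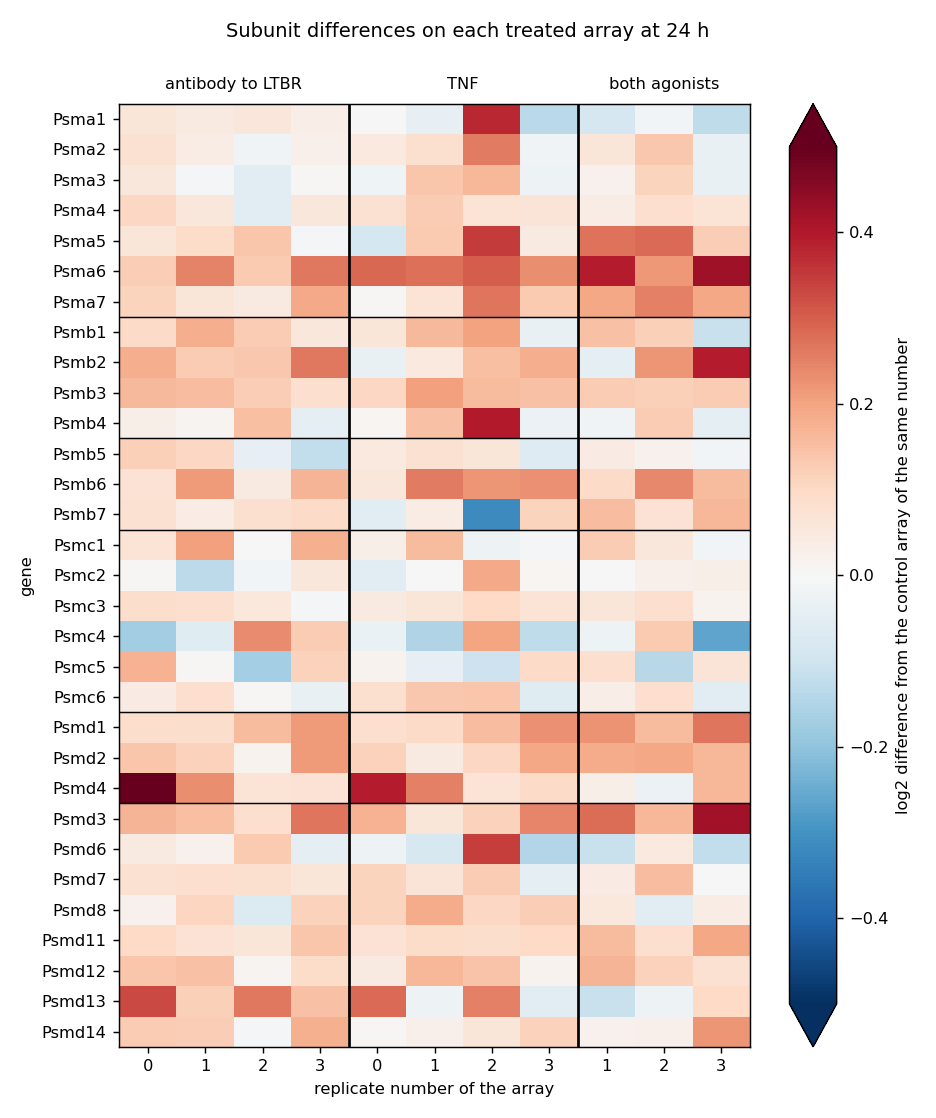
Log2 difference of each of the 31 genes (rows) from the control array of the same number on the 11 treated arrays at 24 h (columns). The colour scale ends at 0.5 in either direction, and Psmd4 on antibody array 0 (0.53) lies beyond it; red prevails in the rows of Psma6, Psmb3, Psmd1, Psmd3 and Psmd11 and is mixed with blue in those of Psmc4, Psmc5 and Psmd6.

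Comparisons among the treatments called no member. Without the block 0 of 31 were called between the combination and TNF (0.0482% of all genes), the combination and the antibody (0.362%), TNF and the antibody (0.0161%) and for the interaction, which sets the combination against the sum of the single changes (0% of all genes). At an unadjusted p under 0.05 limma gave 0, 1, 0 and 2 members, all lower, against 591, 572, 241 and 165 of the 12446 genes. With the block 0 of 31 were called in each, against 6.78%, 5.58%, 0.723% and 0.0161% of all genes. Under 0.05 unadjusted there were then 3, 3, 2 and 6 members, against 2683, 2350, 1417 and 1199 of the 12446 genes. Of these members 2, 2, 1 and 0 were higher and 1, 1, 1 and 6 lower. Leaving out TNF array 3 with the block gave 1 call between the combination and TNF, of Psmb7, and quantile normalization with the block gave 2 there (Psmb7 and Psmd11) and 1 against the antibody (Psma6). The interaction was negative for 29 of 31 genes, with a median of -0.084 against 0.030 over all genes, and largest for Psmd13 (-0.34 ± 0.13, adjusted p = 1) and Psmd4 (-0.30 ± 0.12, adjusted p = 1). The control arrays enter the interaction and both single changes. Scaling to equal medians moved the all-gene median of the interaction to -0.092, a shift of more than 0.1, and the members' median to -0.21.

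Several genes had more than 1 probe set, 18 of the 31, and 53 of the 67 probe sets passed the filter. In a fit of all passing probe sets with the block, the other Psma6 probe sets changed by 0.30 (adjusted p = 0.00101) and 0.37 (0.158) in the combination, beside 0.34 on the one used. The other Psma5 probe set changed by 0.33 (adjusted p = 0.00108) and that of Psmb3 by 0.23 (0.0108), while the Psmb3 probe set used missed the threshold in this larger fit (0.0568). Psmd11 had changes of 0.30 (adjusted p = 0.00122), 0.18 (0.0302), 0.16 (0.153) and -0.046 (0.888) on its others. Psmb4, not called on the probe set used, had 0.16 (adjusted p = 0.0185) on its other, and the other Psma7 probe set 0.19 (0.107). For TNF the other probe sets of Psma6 (0.24, adjusted p = 0.00864) and Psmb3 (0.21, 0.0261) were called and Psmb6 missed the threshold in this fit (0.0537). For the antibody that of Psma6 was called (0.22, adjusted p = 0.0215). In the combination the other probe sets of Psmd13 gave 0.14 and -0.21, that of Psmc4 0.11 and that of Psmd6 0.062, none called. On the probe set used, Psmd13, Psmc4 and Psmd6 were lower in the combination without the block.

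The immunoproteasome moved on another scale. Psmb8 had signals of 120.3, 147.0, 75.3 and 148.2 in the control and 1477.6, 1690.2 and 1168.8 with both agonists, with no overlap. Psmb9 had 83.7, 30.2, 26.1 and 39.3 against 848.0, 848.7 and 388.7, and Psmb10 338.7, 345.1, 265.5 and 401.2 against 2657.6, 2812.3 and 1593.9. Without the block these 3 rose by 3.48 ± 0.31, 3.70 ± 0.39 and 2.74 ± 0.25 (adjusted p = 2.59e-05, 0.000109 and 2.62e-05). The control signals of Psmb9 were below the array median on 4 of 4 arrays and those of Psmb8 on 2 of 4, so that the sizes depend on the offset added before the log: offsets of 1 and 50 gave 3.99 and 2.94 for Psmb9, 3.58 and 3.12 for Psmb8 and 2.77 and 2.60 for Psmb10. On the same scale Psmb5, Psmb6 and Psmb7, the subunits they replace, changed by 0.018 ± 0.068, 0.15 ± 0.076 and 0.10 ± 0.088. All 3 were also called for TNF, where Psmb9 lost its call without control array 1 or 2 or TNF array 1 or 2 (adjusted p up to 0.0577). For the antibody the call of all 3 (0.98 to 1.78) was made with the block, and that of Psmb8 ended without antibody array 0 or 1 (up to 0.0618). Levels of different probe sets cannot be compared, so the data do not give the ratio of the 2 forms.

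**Figure D4:**
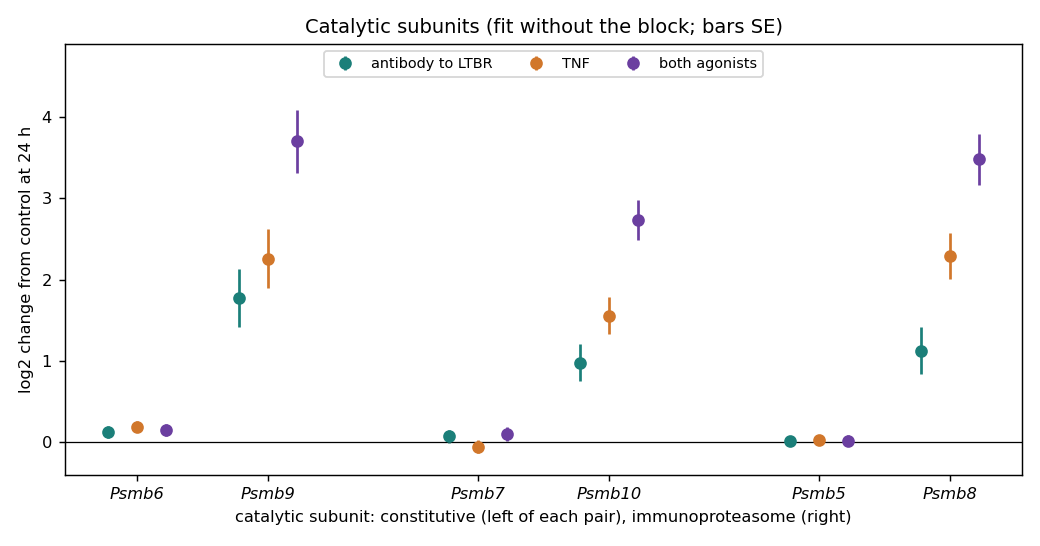
Log2 change from the control at 24 h of the constitutive catalytic subunits Psmb6, Psmb7 and Psmb5 and of the immunoproteasome subunits Psmb9, Psmb10 and Psmb8, in the fit without the block. Points are estimates and bars standard errors; with both agonists Psmb10 and Psmb8 lie at 2.74 and 3.48 and Psmb9 at 3.70, a size that depends on the offset since its control signals are below the array medians, and the constitutive subunits at most 0.19 in any treatment.

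Some other genes that serve the proteasome were called. In the combination 2.45% of all genes were called without the block and 19.5% with it, in either direction. Psme1, a subunit of the PA28 activator, was the called gene among 4 tested activators and inhibitors, at 0.84 ± 0.13 in the combination (adjusted p = 0.00287). For TNF it was 0.66 ± 0.12 (0.0367), a call that ended in 12 of 15 fits, all but those without control array 1, TNF array 0 or combination array 3, and that was kept with the block in 15 of 15. It also ended with equal medians (0.308) and without the variance trend (0.0672). Psme4, an activator also called PA200, was added with the block (0.18 ± 0.049, adjusted p = 0.0215), a call that ended without control array 1 or combination array 1 or 2 (up to 0.0962). Of 8 tested assembly chaperones Psmd10 (gankyrin), a chaperone of the base, was called in the combination: it had 811.1, 871.8, 720.5 and 662.3 in the control and 1664.2, 1322.0 and 1118.1 with both, or 0.82 ± 0.18 (adjusted p = 0.0221). That call ended without control array 2 or 3 or combination array 1 or 2 (up to 0.133) but remained in 15 of 15 fits with the block, where TNF was called too (0.52 ± 0.087). Of 7 tested receptors, deubiquitinases and shuttles none was called without the block; with it Sem1, a small subunit of the lid, fell by 0.13 ± 0.037 in the combination (adjusted p = 0.0232), which ended without control array 1 or 2 or any of the 3 combination arrays (up to 0.0903). Among 5 genes of the p97 unfoldase, which pulls ubiquitin-tagged proteins from membranes and complexes, its cofactor gene Nploc4 was called with the block (0.35 ± 0.070, adjusted p = 0.00315). The only tested gene of the ubiquitin and E1 list was Uba6, which was not called.

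Nfe2l1, which encodes Nrf1, was higher in the combination. It had signals of 3350.2, 3731.5, 3410.3 and 2864.9 in the control, 4076.1, 4954.9, 4240.9 and 4730.1 with the antibody, 4016.3, 4832.4, 3353.8 and 4240.3 with TNF, and 7304.6, 5256.9 and 5004.7 with both agonists. The antibody and combination arrays all lay above the control arrays, and TNF array 2 lay among them. The rise was 0.79 ± 0.14 in the combination (adjusted p = 0.00766) and was called in 15 of 15 fits that left out an array. For the antibody it was 0.43 ± 0.084 and was called with the block (adjusted p = 0.00962). It was the gene called without the block among 7 tested genes of the Nrf1 and Nrf2 pathway; with the block Maff rose (0.72 ± 0.088) and Mafk and Ngly1, the latter the enzyme that removes sugars from Nrf1, fell by 0.27 ± 0.067 and 0.20 ± 0.055 in the combination. The Mafk call ended without combination array 2 or 3 (adjusted p up to 0.0708), and that of Ngly1 without these or control array 3 (up to 0.0894). Scaling to equal medians without the block ended the combination calls of Nfe2l1 (adjusted p = 0.0917), Psme1 (0.0591) and Psmd10 (0.181), at nearly the same changes.

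Other large complexes gave a comparison. None of the 9 genes of the COP9 signalosome, a relative of the 19S lid, was called for any treatment, with a median of 0.025 in the combination without the block and the largest change, 0.24 ± 0.16, in Cops7b. None of the 8 genes of the CCT chaperonin was called without the block, where its median was 0.058 for the antibody, 0.056 for TNF and 0.012 for the combination. Its largest change in the combination was -0.18 ± 0.097 in Tcp1. Mostly positive changes were not particular to the proteasome genes. Without the block 8, 8 and 5 of the 8 CCT genes were positive for the antibody, TNF and the combination. Of the 9 COP9 genes 7, 7 and 6 were positive. With the block Cct5 was called for the antibody (0.14 ± 0.037, adjusted p = 0.0424) and the combination (0.15 ± 0.041, 0.0206). The antibody call remained in 3 of 15 fits that left out an array, those without TNF array 2 or combination array 1 or 3 (up to 0.164), and the combination call ended without control array 1 or combination array 1 or 2 (up to 0.122).

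The place of Psma6 on the chromosome was looked up after its values were seen. In the RefSeq table of GRCm38.p6 the next protein-coding gene after Psma6 is Nfkbia, 70949 bases away, which encodes an NF-kB inhibitor. Nfkbia changed by 1.18 ± 0.14 in the combination without the block (adjusted p = 0.000268). On the other side Prorp, 1730 bases away, was not called (0.65 ± 0.27, adjusted p = 0.358). The 31 genes have 62 such nearest neighbours, of which 43 were tested, 1 was called in the combination without the block (2.33%, against 2.45% of all genes) and 8 with it (18.6%, against 19.5% called in either direction). The neighbours were thus called about as often as other genes. Whether Psma6 and Nfkbia share regulation was not tested.

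At the earlier times no subunit gene moved far. Against the control array of the same time, 0 of 31 passed 1.5-fold with the antibody at 2 h (4.92% of all genes did) and at 6 h (5.79%), and 0 of 31 with TNF at 2 h (7.69%) and at 6 h (9.73%). There was 1 array per group, so these differences have no replicate check. The medians of the 31 were -0.020 and -0.011 for the antibody and -0.011 and -0.0059 for TNF at 2 h and 6 h, with 13 to 15 genes positive. These values moved with the scaling: with equal medians TNF had a median of -0.074 with 4 genes positive at 2 h and -0.14 with 6 at 6 h, where the median of all genes was -0.095 and -0.12, and with quantile normalization TNF at 6 h had 21 positive. None of the 31 passed 1.5-fold at 2 h or 6 h under either scaling. At 24 h the arrays of the same number 0 gave 30 positive genes and a median of 0.088 for the antibody, and 23 and 0.047 for TNF. Psma6 had 6370.5, 5781.2 and 6014.5 in control, antibody and TNF at 2 h and 5841.0, 6333.7 and 7078.2 at 6 h. At 6 h its antibody difference of 0.12 was the highest of the 31, while with TNF the extremes were 0.28 for Psmc4 and -0.28 for Psmc5. The control arrays numbered 0 themselves moved: from 6 h to 24 h 8 of 31 genes were positive, with a median of -0.057 and the lowest value, -0.36, in Psmd4. Scaling to equal medians put 1 member past 1.5-fold at 24 h on number 0, Psmd4 with the antibody (0.71), while the median of all genes in that pair moved from -0.019 to 0.16.

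**Figure D5:**
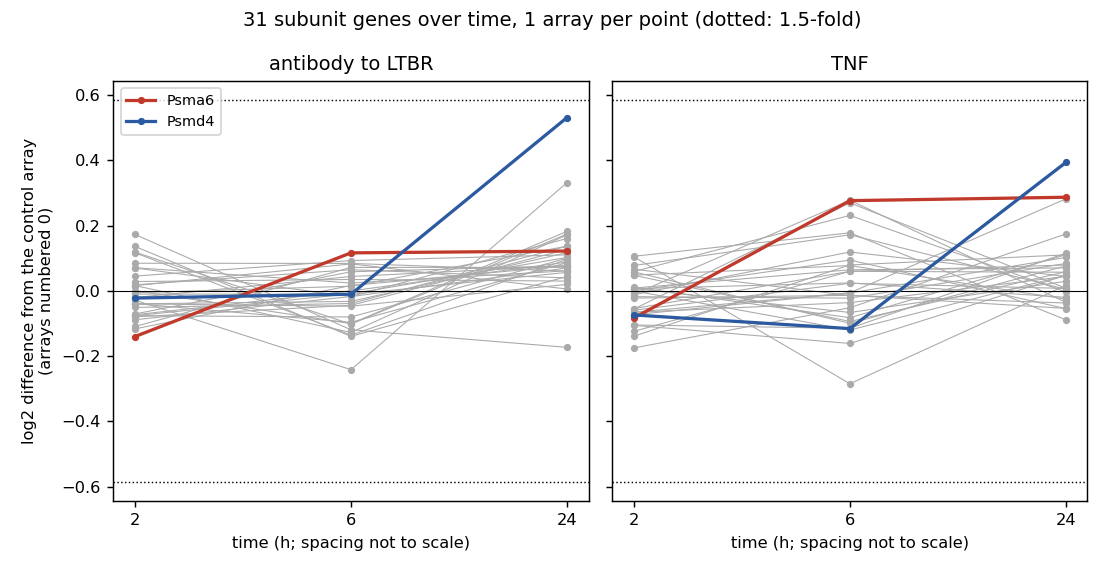
Log2 difference of the antibody array (left) and the TNF array (right) from the control of that time, at 2, 6 and 24 h, for the 31 genes on the arrays numbered 0. Each line is a gene and each point rests on 1 array per group; Psma6 and Psmd4 are coloured, dotted lines mark 1.5-fold, and Psmd4 with the antibody at 24 h (0.53) comes nearest to them.

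The members varied less than other genes. Their median SD over the 15 arrays at 24 h was 0.112, against 0.228 for all genes tested, and ran from 0.0548 for Psmc6 to 0.222 for Psma6. The members lay above the array median on every array, whereas a tested gene needed this on 3 of the 15. The part of brightness in this contrast was not tested. A median of 28.0% of a member's sum of squares lay between the groups and 51.2% between the replicate numbers, against 15.1% and 56.8% for all genes. Psmb1 (81.2%) and Psmc5 (87.4%) were ordered mainly by the number, and Psmd11 (16.5%) and Psmd4 (13.4%) least.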

How the data were processed

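RNA of cultured aortic smooth muscle cells was measured on 21 Affymetrix arrays, 15 of them at 24 h. The values are the signal intensity per probe set on a linear scale, as deposited by the authors; GCOS 1.4 made them, per the submitters' processing notes. In the deposited values each array has a trimmed mean of 500 (2% cut at each end); how GCOS corrected and summarized them is not given in the sources used here, and the number of arrays limits the precision. Without 64 control probe sets, a probe set passed when its signal exceeded the array median in 3 or more of the 15 arrays at 24 h (25110 of 45101). Names came from the platform annotation: 34945 probe sets have 1 gene symbol and 932 several, and those with several or none were left unnamed. Each gene was read on its passing probe set with the highest mean log2 signal, which left 12446 genes. Log2(signal + 10.2), the offset being the 10th percentile of the values at 24 h, was fitted with limma 3.58.1 (R 4.3.3, lmFit and eBayes with a variance trend) over all 15 arrays, with 11 residual degrees of freedom, and p-values were adjusted by Benjamini-Hochberg over all genes in each of 7 comparisons. The script was tested on simulated data.

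The replicate numbers in the labels paired the arrays: deviations from the group means correlated at 0.46 to 0.809 (median 0.63) in 21 pairs of arrays with the same number and at -0.576 to 0.212 (median -0.229) in 63 other pairs. A fit with the number as a block (8 residual degrees of freedom) is therefore given where it changes a call. Alternatives were equal medians, quantile normalization, offsets, no filter, no trend, the mean of a gene's probe sets, arrays numbered 1 to 3, and each array left out. The members and lists were chosen with earlier results of these data known. By rule, values on every array are given for members called with or without the block whose combination change is among the 10 largest, for the catalytic subunits and for members that left the direction of most others; of each related list the gene with the largest combination change is named. Psmd4 and the related genes called with the block were added after their values were seen. Of the listed related genes 20 were not among those tested.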

Additional observations from a re-analysis of the deposited data

Results flagged for a closer look

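Of 93 groups of 4 arrays, 1 for each subunit gene and group at 24 h, 6 held an array far from the other 3, and chance flags about 1 in 20 such groups. Psma3, an alpha subunit, stood at 8635.1 on control array 1, against 7532.6 to 7667.5 on the others. On the same array Psmb4, a structural beta subunit, was at 7617.9, against 7054.7 to 7111.4. Psmc2, an ATPase of the base, was at 6803.8 on antibody array 1, against 7681.5 to 7780.6, and at 8878.5 on TNF array 2, against 7367.4 to 7538.9. On TNF array 3 the lid subunits Psmd7 and Psmd14 were low, at 1704.5 against 2008.4 to 2035.6 and at 4754.5 against 5034.7 to 5065.9. On the probe sets used, none of these genes was called in any of the 7 comparisons, with or without the block.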

How the results depend on the processing

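The count of 0 called members in each of the 7 comparisons stayed at 0 with equal medians, quantile normalization, offsets of 1 and 50, no filter, no variance trend, the mean of a gene's probe sets, arrays numbered 1 to 3, and each array left out. The replicate block, which uses the pairing, gave 1, 3 and 8 members for the antibody, TNF and the combination against the control. With the block and equal medians the counts were 1, 1 and 3. With the block and quantile normalization, added after seeing the data, they were 1, 3 and 10, with 2 between the combination and TNF and 1 between the combination and the antibody. Leaving out each array with the block, also added after seeing the data, gave 0 to 2 for the antibody, 1 to 4 for TNF, 4 to 9 for the combination and 0 to 1 between the combination and TNF.

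The changes in the combination that turned sign belonged to members not called there. With the mean of probe sets Psmc4 gave 0.0153 and Psmd6 0.0043. Psmd13 gave 0.018 with the block, 0.0313 with the block and equal medians and 0.0012 with the block and quantile normalization. Psmd8 gave 0.00087 with equal medians, 0.0157 with quantile normalization, 0.0122 on arrays numbered 1 to 3, 0.0075 with the block, 0.0208 with the block and equal medians and 0.0306 with the block and quantile normalization. With each array left out Psmb5 ran from -0.0032 to 0.0293 (up to 0.0637 with the block), Psmc4 from -0.166 to 0.107 (-0.156 to 0.016 with the block), Psmd13 from -0.0559 to 0.0396 (-0.0616 to 0.0719), Psmd6 from -0.0997 to 0.0147 (down to -0.133 with the block) and Psmd8 from -0.0617 to 0.0473 (-0.013 to 0.0325). The cause was not tested. The 95% intervals of the 31 genes in the combination reached from -0.35 to 0.66 without the block and from -0.26 to 0.44 with it, with a median SE of 0.088 and 0.050.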
